A study of Mus musculus with 20 samples.

Results

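Aged mice that had lived in an enriched environment (24mEE) were compared with young mice from a standard cage (5mSC), to see which hippocampal RNAs still differed between the ages once the old animals had been enriched. The comparison took in 10 of the 20 libraries of the series, 5 per group, chosen by their labels. All 4 groups were male C57BL/6 mice, labelled 5 months or 24 months and housed in a standard cage (5mSC, 24mSC) or with enrichment (5mEE, 24mEE); no group carried a transgene or received a drug. According to the study's methods, enrichment was a larger cage with wheels, tubes and climbing objects, which the old mice entered only in their last months of life, and each hippocampus was extracted on its own. Age and housing differ together between 24mEE and 5mSC and cannot be told apart within this comparison, so the values of 24mSC and 5mEE are set beside it. The data are bulk counts, in which fewer cells of a type and less RNA per cell cannot be told apart.

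The hippocampus forms spatial and episodic memories, and its dentate gyrus is a place where neurons are still born in adult mice. With age, microglia, the resident phagocytes, and astrocytes raise complement and antigen presentation genes, while the birth of neurons and of oligodendrocytes from their precursors declines. Neuronal activity in turn drives immediate early genes, and chaperones fold newly made proteins.

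The 10 libraries held between 11 and 34.1 M counts, 23.9 ± 9.99 M in 5mSC and 23.3 ± 2.23 M in 24mEE (SD, n = 5 each). In 1 of them, 5mSC replicate 3, mitochondrial ribosomal RNA (mt-Rnr1 plus mt-Rnr2) took 26.8% of the counts, against 0.883 to 1.82% in the other 19 libraries. The same library had the smallest total of the 10. Its mean log2 level of 8 neuron markers was 9.14, against 9.92 to 10.2 in the other 5mSC libraries, whereas its choroid plexus markers stood at 2.85 and those of the other 4 at 0.312 to 0.901. The neuron markers stood at 9.97 to 10.2 in 24mEE. Counts and called genes are therefore given with all 20 libraries in the fit and again without 5mSC replicate 3, that is from 19 libraries, and a value is from 20 unless the passage says otherwise. The part of that library's RNA quality and choroid plexus signal in each result was not tested beyond this.

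With 20 libraries, 28 of 16692 genes passed an adjusted p of 0.05 between 24mEE and 5mSC in edgeR's quasi-likelihood test, 0.168% of those tested. Of these, 17 were higher in 24mEE (0.102%) and 11 lower (0.0659%). Without 5mSC replicate 3, 154 of 16755 genes passed (0.919%), 77 in each direction (0.46% each), and all 28 were among them. The count moved with other single libraries too: it was 259 without 5mSC replicate 2, 120 without 5mSC replicate 4, 42 without 5mSC replicate 5, 17 without 24mEE replicate 1 or 3, 13 without 24mEE replicate 2 and 11 without 24mEE replicate 5. The levels of the 2 groups did not overlap in 26 of the 28 genes, against 2.28% of all genes tested; among the 154 this held for 144, against 4.73% of all genes with 5 against 4 libraries. All but 1 of the 28, the unannotated transcript Gm43844, code for proteins, and 5 lie on chromosome 18, of which 4 are clustered protocadherins. Between the enriched and the standard-housed old mice, 24mEE minus 24mSC, the log2 fold changes of the 28 genes in the fit of 20 libraries ran from -0.62 to 0.50 and none passed, the lowest adjusted p being 0.657. The 95% interval of that difference held 0 for 26 of the 28. Without 5mSC replicate 3 the lowest of these adjusted p was 0.18, that of Kif17. Over all genes, and also without replicate 3, 6 passed between 24mEE and 24mSC (0.0358%) and 1 between 5mEE and 5mSC (0.00597%). The gene that passed between the young groups was among the 154. Without replicate 3, 5mEE minus 5mSC had the same sign as 24mEE minus 5mSC in 146 of the 154 genes. In 73 of the 154, 5mEE lay nearer to 24mEE than to 5mSC on the log2 scale. With 20 libraries these counts were 22 and 8 of the 28, and none of the 28 passed between 5mEE and 5mSC. These comparisons share the 24mEE or the 5mSC libraries with the main one and are given only as values beside it.

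**Figure D1:**
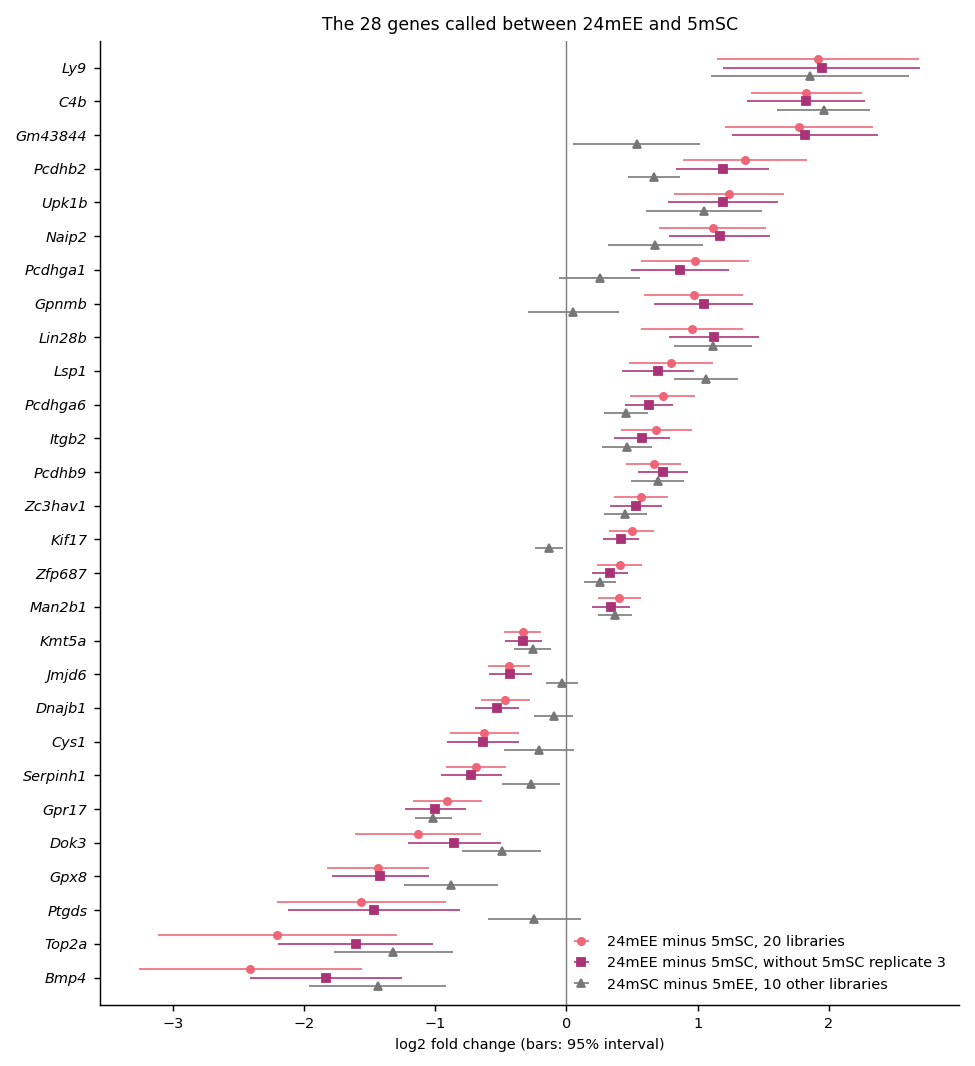
Log2 fold changes (x axis, points, with 95% intervals as bars) of the 28 genes called with 20 libraries (y axis), as 24mEE minus 5mSC with 20 libraries (circles) and without 5mSC replicate 3 (squares), and as 24mSC minus 5mEE in the 10 libraries of the other 2 groups (triangles). The intervals of 24mEE minus 5mSC exclude 0 in all 28 genes, since that is how they were chosen, whereas those of Gpnmb, Jmjd6, Dnajb1, Ptgds, Pcdhga1 and Cys1 hold 0 in the other pair and that of Kif17 lies below 0 there.

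Genes of complement and of immune cells were among those that rose. C4b encodes complement component C4, which tags surfaces for removal by phagocytes. It lies on chromosome 17 (GRCm38, chr17:34728380-34743882). From replicate 1 to 5, C4b stood at 25.9, 26.4, 31.9, 30.7 and 41.4 CPM (counts divided by the TMM-scaled library total in M counts) in 5mSC and at 89.1, 93.4, 175, 86.7 and 112 CPM in 24mEE. No young library reached the level of any old one, and 24mEE replicate 3 stood above the rest. The fold was 3.55 (log2 fold change 1.83 ± 0.203 SE, adjusted p = 0.000224), and without 5mSC replicate 3 it was 3.54 (adjusted p = 0.000177). The 24mSC mean of 110 CPM lay beside the 24mEE mean of 111, with an interval of the log2 difference from -0.38 to 0.42 without replicate 3. C4b shares 34.6% of its sequence words of read length with other genes, so part of its count may depend on how the authors treated reads with several matches.

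Itgb2 encodes the beta chain of complement receptor 3 and other leukocyte integrins. It was at 6.26, 6.46, 3.94, 7.41 and 7.39 CPM in 5mSC and at 9.09, 10.1, 12.6, 10 and 9.93 CPM in 24mEE (chr10:77530252-77565708), again without overlap. Its log2 fold change was 0.69 ± 0.13 (adjusted p = 0.0339) and, without replicate 3, which was the lowest young library, 0.57 ± 0.102 (adjusted p = 0.00837). The call was lost in the fits without 5mSC replicate 1 or 24mEE replicate 2, 3 or 5, with adjusted p between 0.0632 and 0.113. C4b and Itgb2 were the only members of the complement list to pass in either fit, 2 of 18. Of all genes tested, 0.102% rose with 20 libraries and 0.46% without replicate 3. The median log2 fold change of the list was 0.18, or 0.14 without replicate 3, beside -0.016 and -0.006 over all genes tested.

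Lsp1, an actin-binding protein of leukocytes, was at 3.89, 3.6, 1.86, 2.88 and 2.66 CPM in 5mSC and at 5.32, 5.25, 4.35, 5.71 and 5.63 CPM in 24mEE (log2 fold change 0.80 ± 0.155, adjusted p = 0.0396, and 0.70, adjusted p = 0.0138 without replicate 3). The groups did not overlap, and the 24mSC mean was 5.96 CPM. Without 5mSC replicate 5 or 24mEE replicate 1, 2, 4 or 5 its adjusted p was 0.055 to 0.133. Gpnmb, a glycoprotein of activated microglia and macrophages, was at 3.1, 3.78, 5.26, 4.48 and 3.91 CPM against 6.46, 6.75, 10.2, 9.08 and 7.19 (log2 fold change 0.97 ± 0.181, adjusted p = 0.0297, and 1.05, adjusted p = 0.00709 without replicate 3), and without 5mSC replicate 1 or 24mEE replicate 3, 4 or 5 its adjusted p was 0.0567 to 0.113. In the young enriched mice Gpnmb averaged 6.08 CPM, close to the 6.33 of 24mSC, so its values did not separate by age where housing was the other way round. Ly9, a receptor of the SLAM family on lymphocytes, and Naip2, a sensor of the inflammasome, were called as well and are named here after their values were seen. Ly9 rose from 0.314 ± 0.0888 to 1.17 ± 0.335 CPM (SD, n = 5; adjusted p = 0.0379), and Naip2, which shares 19.1% of its words with other genes, from 0.939 ± 0.204 to 2 ± 0.246 CPM (adjusted p = 0.0144). Zc3hav1, an antiviral protein that binds CpG-rich RNA, had a log2 fold change of 0.57 (adjusted p = 0.0142), and Man2b1, a lysosomal mannosidase, one of 0.40 (adjusted p = 0.0396). Without replicate 3 the log2 fold changes of Ly9, Naip2, Zc3hav1 and Man2b1 were 1.95, 1.17, 0.53 and 0.34, with adjusted p of 0.011, 0.00315, 0.00964 and 0.0244. Zc3hav1 lost its call without 24mEE replicate 2 or 5 (adjusted p 0.0533 and 0.0584), and Man2b1 without 5mSC replicate 5 or 24mEE replicate 1, 2, 3 or 5 (0.055 to 0.139).

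In the other immune lists few members passed. The shares of all genes tested were 0.102% higher and 0.0659% lower with 20 libraries, and 0.46% each without replicate 3. Of the activated microglia genes 1 of 26 passed, and 2 of 27 without replicate 3. Ctss, the lysosomal protease cathepsin S, was the one added (log2 fold change 0.40, adjusted p = 0.0382, beside 0.52 and 0.0681 with 20 libraries). The mean log2 level of this list ran from 4.01 to 4.28 in 5mSC and from 4.32 to 4.67 in 24mEE, without overlap. Its ranges were 4.37 to 4.79 in 24mSC and 3.89 to 4.16 in 5mEE. Lyz2 and Gfap, markers of activated phagocytes and astrocytes, stood at log2 fold changes of 0.75 and 0.60 without replicate 3, with adjusted p of 0.0553 and 0.0541. With 20 libraries they stood at 0.81 and 0.72 with adjusted p of 0.0617 and 0.0658. None of 18 reactive astrocyte genes passed in either fit. Their median was -0.13 with 20 libraries, where 10 were below 0, and 0.18 without replicate 3, where 12 were above 0. Fcrls, a receptor of resting microglia, fell by 0.86 on the log2 scale without replicate 3 (adjusted p = 0.0409), and had an adjusted p of 0.0586 with it. It was the only 1 of 14 resting microglia genes to pass in either fit. Most of that list went the other way, with 11 of 14 log2 fold changes above 0 and a median of 0.07 without replicate 3. No member of the lists for MHC class I presentation (18 tested), MHC class II presentation (7) or interferon-stimulated genes (34) passed in either fit, and their medians without replicate 3 were 0.20, -0.47 and 0.20. In 24mSC versus 5mEE, 8 MHC class I genes and 13 interferon-stimulated genes were higher, against 3.87% of all genes tested there, with medians of 0.61 and 0.47. The 7 MHC class II genes were all above 0 there, with a median of 0.46 and none called. In 5mSC the mean log2 level of the class II list was 1.7 in replicate 4 and 0.771 to 0.977 in the others. Whether the 2 pairs differ in these lists was not tested.

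**Figure D2:**
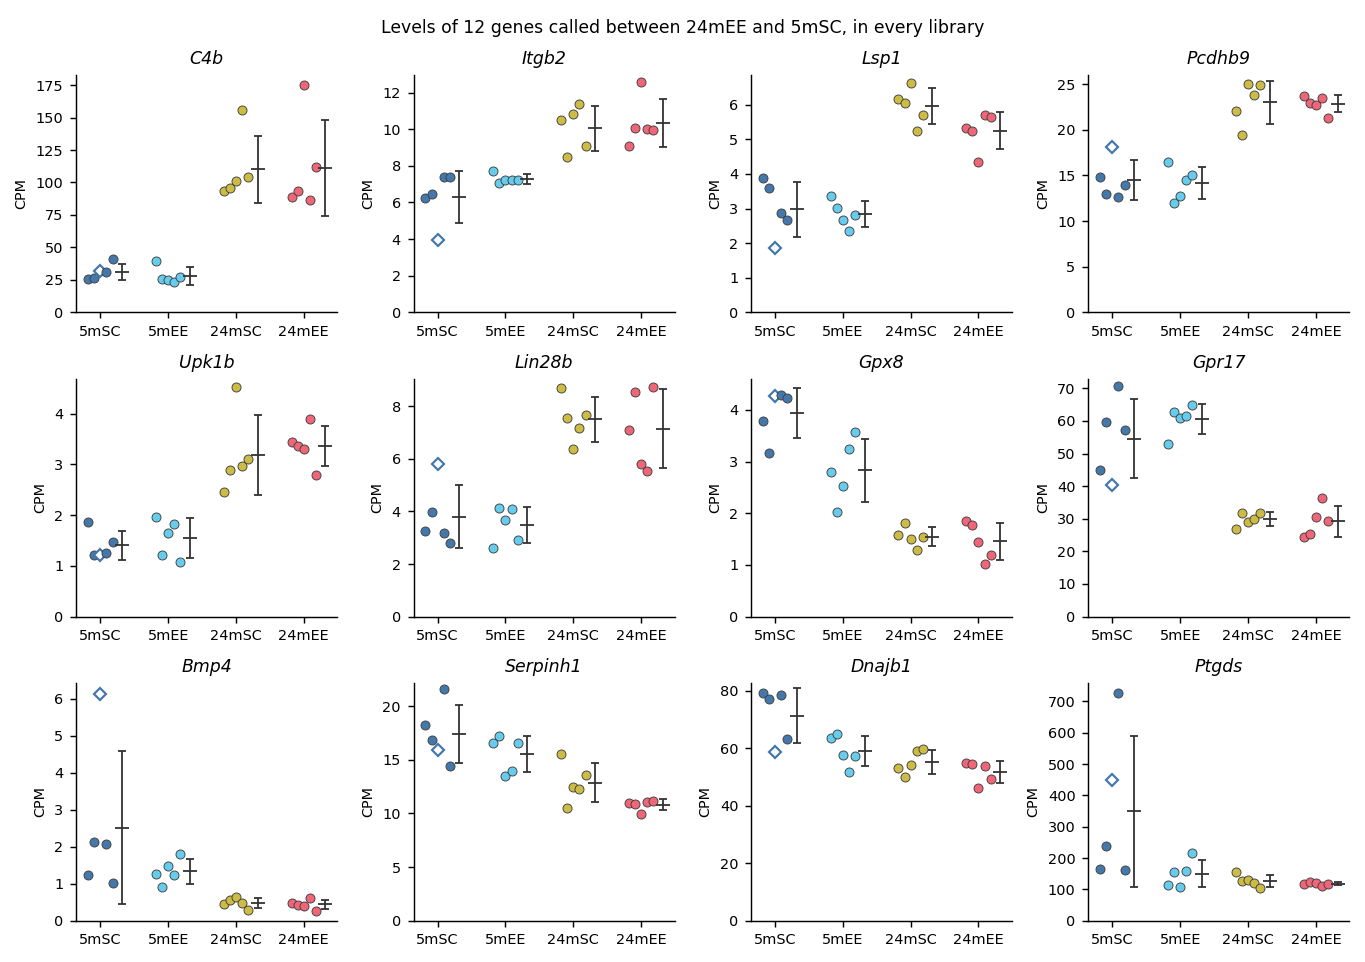
CPM (y axis, from 0) of 12 called genes in every library of the 4 groups (x axis); each point is a library, the open diamond is 5mSC replicate 3, and the bar beside each group is the mean ± SD of its 5 libraries. In C4b, Pcdhb9, Upk1b and Gpr17 both old groups lie apart from both young groups, whereas in Dnajb1 and Ptgds the 5mEE libraries lie near the old ones.

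Some of the clustered protocadherins, the cell adhesion proteins by which neurons tell their own branches from those of others, were higher in the old enriched mice. Among 43 tested members 4 rose and none fell, and 42 of 43 log2 fold changes were above 0, with a median of 0.38. Without replicate 3, 8 rose and 39 of 43 were above 0, with a median of 0.27, while 11 rose without 5mSC replicate 2 in its place. Over all genes tested, 0.102% rose and 7809 of 16692 log2 fold changes were above 0 with 20 libraries. Without replicate 3 the corresponding values were 0.46% and 8154 of 16755. The mean log2 level of the list was 2.63, 2.99, 2.10, 3.01 and 2.86 in 5mSC and 3.21, 3.13, 3.33, 3.11 and 3.30 in 24mEE, so that every old library stood above every young one, with replicate 3 the lowest. The corresponding ranges were 3.04 to 3.29 in 24mSC and 2.94 to 3.11 in 5mEE. By gene cluster over all annotated members, the median log2 fold change without replicate 3 was 0.45 for 22 beta genes, of which 5 were called, 0.19 for 20 gamma genes, of which 3 were called, and 0.25 for 12 alpha genes, of which none was called.

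Pcdhb9 (chr18:37400855-37403909) was the member with the smallest p. It was at 14.9, 13, 18.1, 12.7 and 14 CPM in 5mSC and at 23.6, 23, 22.7, 23.5 and 21.3 CPM in 24mEE, a log2 fold change of 0.67 ± 0.1 (adjusted p = 0.00633), or 0.74 ± 0.0915 without replicate 3 (adjusted p = 0.000251). The 24mEE libraries lay close together, at a mean of 22.8 ± 0.932 CPM (SD, n = 5), and the 24mSC mean was 23 CPM. Pcdhb2 rose from 1.84, 3.23, 0.877, 3.5 and 3.88 CPM to 5.39, 6.15, 8.93, 8.24 and 7.1 CPM (log2 fold change 1.36 ± 0.227, adjusted p = 0.0105), with 5mEE in between at a mean of 4.17 CPM. Pcdhga6 rose from 8.6, 10.2, 5.59, 9.19 and 10.8 CPM to 14, 16.4, 13.8, 14.8 and 16.1 CPM (log2 fold change 0.74, adjusted p = 0.00986). Without replicate 3 the log2 fold changes of Pcdhb2, Pcdhga6 and Pcdhga1 were 1.19, 0.63 and 0.87, with adjusted p of 0.00136, 0.00111 and 0.0246. Gamma members carry a caveat, because their last exons are common to the cluster: 44.4% of the words of Pcdhga6 and 44.9% of those of Pcdhga1 occur in other genes. Pcdhga1 had a log2 fold change of 0.98 (adjusted p = 0.0455), which lost its call without 5mSC replicate 1 or 5 or 24mEE replicate 1, 2, 3 or 5 (adjusted p 0.0621 to 0.123). Beta members are single-exon genes with little such sharing, 8.75% in Pcdhb9 and 2.06% in Pcdhb2.

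A few genes of oligodendrocyte precursors and of dividing cells were lower in the old enriched mice. Gpr17, a receptor that marks precursors at the point of commitment to the oligodendrocyte fate, lies at chr18:31942997-31949636. It was at 45, 59.5, 40.3, 70.6 and 57.3 CPM in 5mSC and at 24.5, 25.4, 30.5, 36.3 and 29.3 CPM in 24mEE. The highest old library was below the lowest young one. The log2 fold change was -0.91 ± 0.126 (adjusted p = 0.00249) and -0.999 ± 0.112 without replicate 3 (adjusted p = 0.000135), and the 24mSC and 5mEE means were 30 and 60.6 CPM. Bmp4, a growth factor that committed precursors express and that holds back neurogenesis, was at 1.22, 2.13, 6.14, 2.08 and 1.03 CPM in 5mSC and at 0.48, 0.43, 0.408, 0.62 and 0.275 CPM in 24mEE (chr14:46383520-46390669). Replicate 3 was the highest young library, and without it the log2 fold change went from -2.41 ± 0.407 (adjusted p = 0.0115) to -1.83 ± 0.277 (adjusted p = 0.00213); without 24mEE replicate 5 the adjusted p was 0.0587. Gpr17 and Bmp4 were the only 2 of 18 members of the precursor list to pass. Of all genes tested, 0.0659% fell with 20 libraries and 0.46% without replicate 3. The median log2 fold change of the precursor list was -0.04 in both fits, and none of 15 mature myelin genes passed.

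Top2a, the topoisomerase of dividing cells, was at 0.972, 1.16, 5.15, 1.48 and 1.28 CPM in 5mSC and at 0.332, 0.559, 0.68, 0.31 and 0.137 CPM in 24mEE. Its log2 fold change was -2.20 ± 0.437 (adjusted p = 0.041) and -1.61 ± 0.285 without replicate 3 (adjusted p = 0.00837). These are low levels: 3 counts correspond to 0.0889 to 0.329 CPM over the 10 libraries, and without 24mEE replicate 1, 2, 4 or 5 the adjusted p was 0.0655 to 0.139. Top2a was the only 1 of 11 tested proliferation genes to pass, while 0.0659% of all genes fell, or 0.46% without replicate 3. The list's mean log2 level was 1.26, 1.31, 2.33, 1.2 and 1.23 in 5mSC and 0.872, 0.898, 1.08, 0.881 and 0.556 in 24mEE, beside 0.771 to 1.03 in 24mSC and 1.19 to 1.37 in 5mEE. Its libraries thus fell into 2 ranges by age. None of 15 genes of newborn neurons passed, and their median log2 fold change was -0.22, or -0.31 without replicate 3. Their mean log2 level ran from 3.83 to 3.93 in 5mSC and from 3.41 to 3.65 in 24mEE without overlap, whereas 24mSC spread from 3.12 to 4.10. The members with the smallest p were the transcription factors Sox11 and Sox4, at log2 fold changes of -0.78 (adjusted p = 0.13) and -0.37 (adjusted p = 0.165), and their adjusted p without replicate 3 were 0.159 and 0.202.

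Gpx8 encodes a glutathione peroxidase family member of the endoplasmic reticulum and had the smallest p among the genes that fell. It was at 3.78, 3.17, 4.27, 4.3 and 4.22 CPM in 5mSC and at 1.85, 1.76, 1.45, 1.02 and 1.19 CPM in 24mEE (chr13:113042753-113046410), with a wide gap between the groups. The log2 fold change was -1.43 ± 0.186 (adjusted p = 0.00142), or -1.42 ± 0.178 without replicate 3 (adjusted p = 0.000251). The old standard-cage mice averaged 1.54 CPM and the young enriched mice 2.83 CPM. No other of the 26 peroxidases and antioxidant enzymes passed in either fit. Serpinh1, the chaperone of collagen, was at 18.2, 16.9, 15.9, 21.6 and 14.4 CPM in 5mSC and at 11, 10.9, 9.92, 11.1 and 11.2 CPM in 24mEE (chr7:99345376-99353239; log2 fold change -0.69 ± 0.111, adjusted p = 0.00986, and -0.72, adjusted p = 0.00309 without replicate 3). Its 24mSC libraries, at a mean of 12.9 CPM, lay between, and the interval of 24mEE minus 24mSC, -0.48 to -0.02 on the log2 scale without replicate 3, excluded 0 although the adjusted p was 0.4. The collagen list had 1 of 25 members called, or 2 with P4ha1, a collagen prolyl hydroxylase, without replicate 3 (log2 fold change -0.47, adjusted p = 0.00709, beside -0.35 and 0.149 with 20 libraries). Of all genes tested, 0.0659% fell with 20 libraries and 0.46% without replicate 3.

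Ptgds, the prostaglandin D synthase that meninges and choroid plexus make in quantity, was at 165, 240, 448, 728 and 163 CPM in 5mSC and at 117, 124, 122, 111 and 116 CPM in 24mEE. All young libraries were higher, but 2 of them, replicates 3 and 4, far more so than the rest. The log2 fold change was -1.57 ± 0.309 (adjusted p = 0.041), or -1.47 ± 0.314 without replicate 3 (adjusted p = 0.028), and without any 1 of the 24mEE libraries the adjusted p was 0.0654 to 0.139. The mean log2 level of 15 meningeal and perivascular fibroblast markers moved with it: 2.66, 2.68, 3.38, 3.53 and 2.64 in 5mSC against 2.18 to 2.58 in 24mEE, 2.16 to 2.68 in 24mSC and 2.4 to 2.76 in 5mEE. Of these markers 13 of 15 had log2 fold changes below 0 and none passed, Col1a2 being at -1.11 (adjusted p = 0.07, and 0.057 without replicate 3), and their summed level was 155 to 259 CPM in 5mSC and 139 to 168 CPM in 24mEE. Over all genes tested, 8883 of 16692 log2 fold changes were below 0. The part of attached meninges in Ptgds and the collagen genes was not tested.

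Without 5mSC replicate 3, the chaperone lists held more genes that fell than any other list, and most of these genes did not pass with 20 libraries. Dnajb1, the inducible HSP40 partner of HSP70 (chr8:83608193-83612653), was called in both fits. It was at 79.1, 77, 58.7, 78.6 and 63 CPM in 5mSC and at 54.8, 54.3, 46, 53.7 and 49.4 CPM in 24mEE, so the groups did not overlap. The log2 fold change was -0.47 ± 0.0894 (adjusted p = 0.0366), or -0.53 ± 0.0801 without replicate 3 (adjusted p = 0.00213), and in the fits without 5mSC replicate 1 or 24mEE replicate 1, 2, 3 or 5 the adjusted p was 0.0582 to 0.123. The 5mEE mean of 59 CPM was nearer to that of 24mSC, 55.2 CPM, than to that of 5mSC, 71.3 CPM. Jmjd6, a lysyl hydroxylase of the nucleus, fell from 31.3, 27.1, 31.4, 27.4 and 31.4 CPM to 25.7, 21.8, 19, 22.5 and 20.3 CPM (log2 fold change -0.44, adjusted p = 0.0144, and -0.43, adjusted p = 0.0106 without replicate 3), with 5mEE again low at 23.6 CPM. Its call was lost without 24mEE replicate 2, 3 or 5 (adjusted p 0.0533 to 0.0734).

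Of 27 cytosolic and mitochondrial heat shock proteins 1 fell with 20 libraries and 6 fell without replicate 3, with 26 of 27 log2 fold changes below 0 in the latter fit and a median of -0.24. Besides Dnajb1 these were Hspe1, Stip1, Fkbp4, Dnajb5 and Ahsa2, at -0.33 to -0.41 on the log2 scale; 50.18% of the exon length of Ahsa2 lies opposite Usp34. Of 22 endoplasmic reticulum chaperones and their regulators none passed with 20 libraries and 8 fell without replicate 3, namely Hspa5, Creld2, Manf, Xbp1, Pdia4, Dnajb11, Herpud1 and Atf4, with a median of -0.31 and 20 of 22 below 0. Without 5mSC replicate 2 in its place, 4 members of each of these 2 lists were called. Apart from Manf, Xbp1 and Ahsa2, which the naming rule reached, these genes were named after their values were seen. Over all genes tested without replicate 3, 0.46% fell and 8601 of 16755 log2 fold changes were below 0. In 24mSC versus 5mEE, 7 of 27 heat shock genes and 2 of 22 endoplasmic reticulum genes were lower, against 2.72% of all genes tested there. The medians of the 2 lists in that pair were -0.16 and -0.19. The mean log2 level of the endoplasmic reticulum list was 6.41, 6.29, 6.00, 6.53 and 6.45 in 5mSC and 6.12, 6.14, 6.17, 6.19 and 6.08 in 24mEE, that is lower in each old library than in 4 young ones and higher than in replicate 3. That of the heat shock list was 6.14, 6.01, 5.80, 6.16 and 5.98 against 5.80, 5.80, 5.86, 5.86 and 5.71, with the same library out of line. Hspa5, the abundant HSP70 of the endoplasmic reticulum, was at 384, 329, 244, 475 and 403 CPM in 5mSC and at 279, 257, 290, 297 and 251 CPM in 24mEE. Without replicate 3 its log2 fold change was -0.54 ± 0.122 (adjusted p = 0.0382), and with it -0.42 (adjusted p = 0.167). Creld2, a small disulfide isomerase of the same compartment, was at 19.3, 15.1, 11.8, 21.6 and 23.2 CPM against 10.7, 12.9, 13.6, 14.2 and 12.4 (log2 fold change -0.65 ± 0.12, adjusted p = 0.011 without replicate 3, and -0.53, adjusted p = 0.101 with it).

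A pair of response elements are textbook features of chaperone promoters, the heat shock element, searched as GAANNTTCNNGAA, and the endoplasmic reticulum stress response element, searched as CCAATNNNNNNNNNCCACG. Both were sought on both strands in the 250 bases before the RefSeq start of each gene (GRCm38.p6). The stress response element stood in 7 of 19 endoplasmic reticulum genes with a promoter in the table (36.8%) and in 35 of 27025 genes with one (0.13%). Among the 7 members that fell without replicate 3 and had a promoter, Hspa5 and Creld2 held it (28.6%), and the rest did not hold these letters in this window. The heat shock element stood in 2 of 21 heat shock genes (9.52%), of which Hspe1 fell, and in 139 of the 27025 genes (0.514%). Among all genes called without replicate 3 with a promoter in the table, it stood in 2 of 46 that rose (4.35%, Kctd18 and Krt20, named after their values were seen) and in 1 of 65 that fell (1.54%, Hspe1). A further sequence, the cAMP response element TGACGTCA, was searched in the same windows. Among the same called genes it stood in 3 of 65 that fell (4.62%) and 1 of 46 that rose (2.17%). It stood in 478 of the 27025 genes (1.77%). The promoters of Hspa5, Creld2 and Hspe1 are printed because these genes fell and hold the letters of a chaperone element. All are read 5′ to 3′ on the plus strand, the strand of the gene, with the matched letters in capitals, and in Creld2 and in the first of the 2 matches of Hspe1 the match lies on the opposite strand, so that the capitals show its reverse complement. The match begins 65 bases before the start in Hspa5 (chr2:34771840-34772089), 126 bases before it in Creld2 (chr15:88819396-88819645), and 89 and 84 bases before it, as 2 overlapping matches, in Hspe1 (chr1:55087898-55088147).
Hspa5: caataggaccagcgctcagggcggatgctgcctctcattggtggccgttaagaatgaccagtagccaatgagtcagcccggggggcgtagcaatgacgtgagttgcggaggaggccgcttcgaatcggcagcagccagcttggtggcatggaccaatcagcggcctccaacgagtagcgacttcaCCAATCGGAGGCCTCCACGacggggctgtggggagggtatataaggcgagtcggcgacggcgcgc
Creld2: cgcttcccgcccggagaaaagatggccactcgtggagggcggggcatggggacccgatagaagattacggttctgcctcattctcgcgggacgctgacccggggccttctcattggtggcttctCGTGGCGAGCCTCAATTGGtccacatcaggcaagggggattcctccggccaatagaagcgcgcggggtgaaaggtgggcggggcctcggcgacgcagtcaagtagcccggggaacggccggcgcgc
Hspe1: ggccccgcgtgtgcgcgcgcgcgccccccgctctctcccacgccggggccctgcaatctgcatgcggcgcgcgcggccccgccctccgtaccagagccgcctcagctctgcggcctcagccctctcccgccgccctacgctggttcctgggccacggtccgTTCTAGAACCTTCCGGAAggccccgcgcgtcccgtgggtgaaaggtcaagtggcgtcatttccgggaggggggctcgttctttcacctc
Hspe1, the mitochondrial co-chaperonin, was at 28.3, 20.8, 24.2, 23.7 and 29.8 CPM in 5mSC and at 20.5, 18.7, 18.9, 22.1 and 16.8 CPM in 24mEE (log2 fold change without replicate 3 -0.41 ± 0.0983, adjusted p = 0.0475, and with it -0.39 and 0.0734). The 2 groups overlap by 1 library in this gene, and 22.8% of its words occur elsewhere in the transcriptome. A match is a description of letters and not of a bound site.

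**Figure D3:**
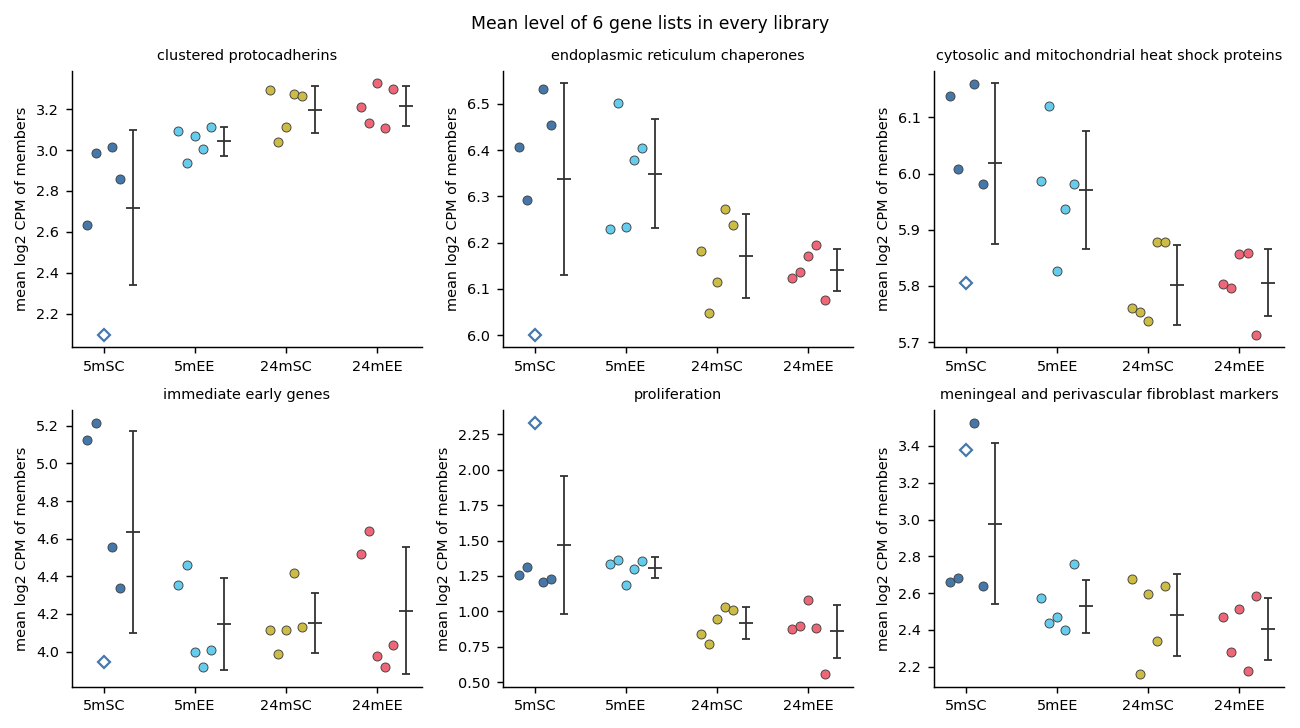
Mean log2 CPM of the members of 6 gene lists (y axis, not from 0) in every library of the 4 groups (x axis), with 5mSC replicate 3 as an open diamond and the mean ± SD of 5 libraries beside each group. The clustered protocadherins are higher and the proliferation genes lower in every 24mEE library than in every 5mSC library, while both chaperone lists are lower in 24mEE than in the 4 young libraries other than replicate 3.

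Activity-regulated genes mostly had log2 fold changes below 0, with wide scatter. None of 26 immediate early genes passed in either fit, although 1 did without 5mSC replicate 4 or 5, and 25 of 26 log2 fold changes were below 0 with 20 libraries (median -0.47) and all 26 without replicate 3 (median -0.61). Over all genes tested, 8883 of 16692 and 8601 of 16755 were below 0 in these 2 fits, and 0.0659% and 0.46% were called lower. The mean log2 level of the list was 5.12, 5.22, 3.95, 4.55 and 4.34 in 5mSC and 4.52, 4.64, 3.97, 3.92 and 4.03 in 24mEE, so the groups overlapped, with young replicates 1 and 2 the highest of the 10. The median of 5mEE minus 5mSC, which shares the same 4 young libraries, was -0.64. Nr4a2, a nuclear receptor induced by activity, had the smallest p: 98.1, 124, 102, 97.5 and 73.1 CPM in 5mSC against 54.3, 79.4, 62.4, 66 and 59.9 CPM in 24mEE (log2 fold change -0.62 ± 0.148, adjusted p = 0.0718, and 0.0548 without replicate 3). Homer1, the scaffold of metabotropic glutamate receptors, was called without replicate 3. It was at 209, 288, 195, 307 and 246 CPM in 5mSC and at 168, 191, 181, 192 and 170 CPM in 24mEE (log2 fold change -0.54 ± 0.109, adjusted p = 0.022, and -0.47 with adjusted p = 0.0973 with 20 libraries), while 24mSC stood lower still at a mean of 152 CPM. Among 19 feedback regulators of CREB and MAPK signalling 3 fell in the same fit: Crem, a repressor of cAMP response (-0.36, adjusted p = 0.0331), Spry4, an inhibitor of receptor tyrosine kinase signalling (-0.47, adjusted p = 0.0275), and Nfil3, a basic leucine zipper repressor (-0.73, adjusted p = 0.0208), the last named after its values were seen. With 20 libraries none of the 3 passed, at adjusted p of 0.0507, 0.0717 and 0.151.

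Some broad lists had medians away from 0 with no member called. Nuclear genes of oxidative phosphorylation had a median log2 fold change of -0.24 with 20 libraries and -0.23 without replicate 3, with 73 of 75 below 0 in the second fit and 0 called. Cytosolic ribosomal protein genes had medians of -0.33 and -0.21, with 74 of 77 below 0 and 0 called. Over all genes tested, 8601 of 16755 were below 0 in the second fit. Without 5mSC replicate 2 instead, 12 oxidative phosphorylation genes and 2 ribosomal ones were called, and without 5mSC replicate 4, 2 of each. In 24mSC versus 5mEE the corresponding medians were 0.03 and 0.09. Their mean log2 level in oxidative phosphorylation was 6.59, 6.18, 6.67, 6.22 and 6.44 in 5mSC and 6.00 to 6.32 in 24mEE, so the difference lay in young replicates 1, 3 and 5. Rpl39, a ribosomal protein gene, was at 1224 CPM in replicate 3 and at 8.96 to 12.5 CPM in the other 5mSC libraries. Lysosomal genes had 2 of 39 members called higher without replicate 3, Man2b1 and Ctss, and a median of 0.03. Of all genes tested in that fit 0.46% rose.

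Markers of dissection give the levels of other tissue in these samples. None of the region lists or cell lists had a called member in either fit. Dentate gyrus markers had a median log2 fold change of 0.28 (0.17 without replicate 3) and neocortex markers one of -0.20 (-0.14). In 24mSC versus 5mEE these medians were -0.41, with all 13 below 0, and 0.34, with all 8 above 0. There 4 of 10 CA3 markers, 1 of 8 CA2 markers and 2 of 11 choroid plexus markers were lower. Higher there were 2 of 8 neocortex and 2 of 9 striatum markers, and 1 of the 9 was lower. The shares of all genes tested in that pair were 3.87% higher and 2.72% lower. The part of these markers in the genes above was not tested. The 10 hub genes that the study named, partly from these samples, are no independent list. None of the 10 was called, and the smallest p belonged to Esr2, an estrogen receptor at log2 fold changes of -1.65 (adjusted p = 0.257) and -0.51 (adjusted p = 0.682) in the 2 fits, and to Inhba, an activin subunit at -0.56 (adjusted p = 0.279, and 0.237 without replicate 3). In 24mSC versus 5mEE, 6 of the 10 were higher and 1 was lower.

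**Figure D4:**
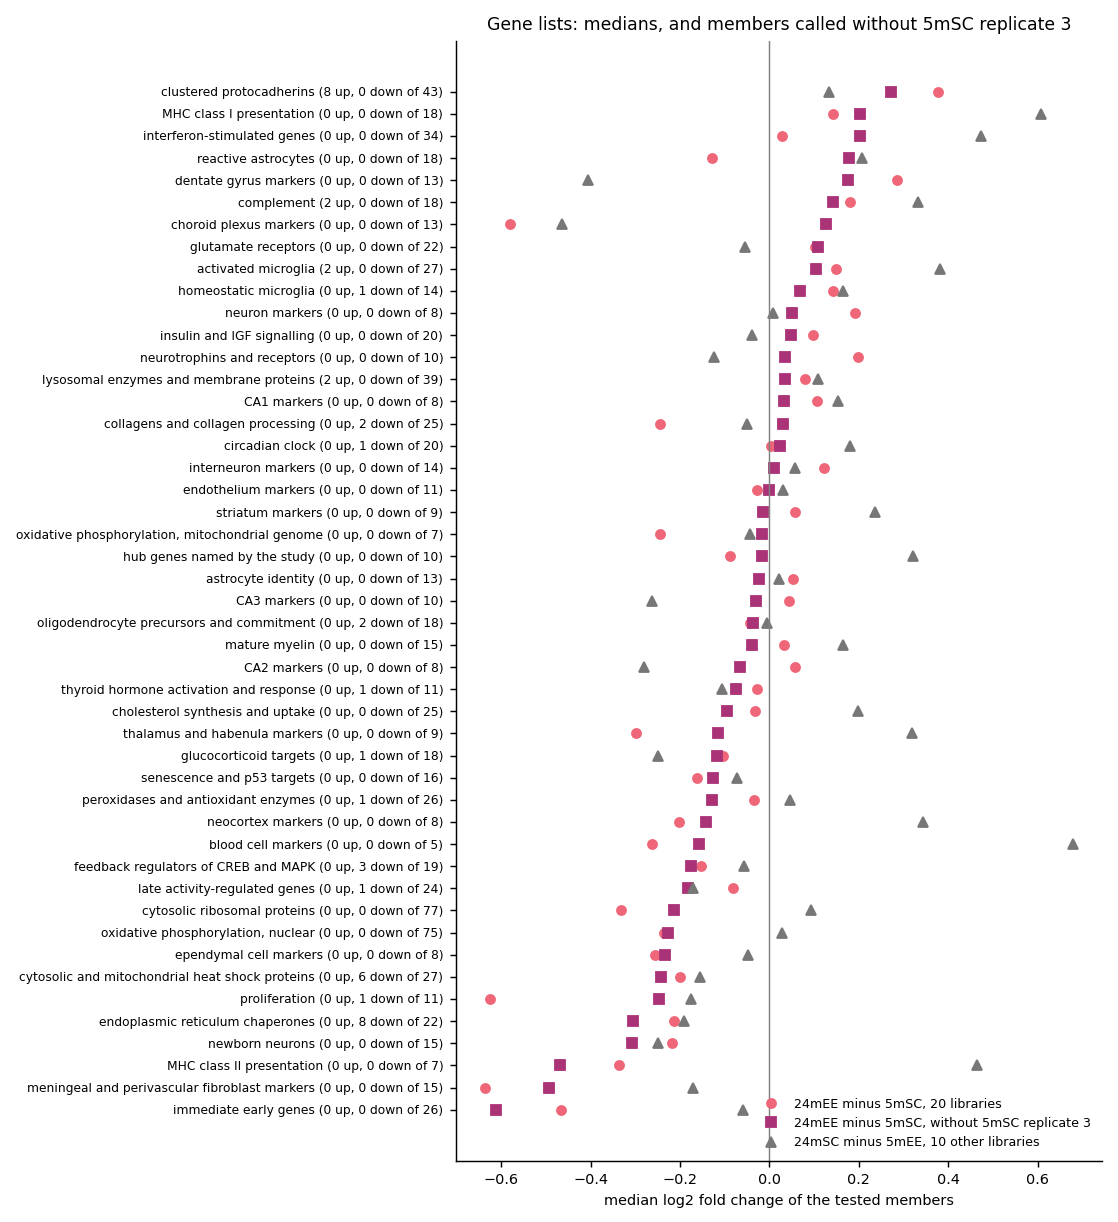
Median log2 fold change (x axis) of the tested members of each gene list with 5 or more of them (y axis), as 24mEE minus 5mSC with 20 libraries (circles) and without 5mSC replicate 3 (squares) and as 24mSC minus 5mEE in the other 10 libraries (triangles); the labels give the members called without replicate 3. The largest counts are 8 of 43 clustered protocadherins higher, 8 of 22 endoplasmic reticulum chaperones lower and 6 of 27 heat shock proteins lower. Of all genes tested without replicate 3, 0.46% were called in each direction.

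Other called genes belonged to no list. Upk1b, a tetraspanin, was at 1.87, 1.22, 1.21, 1.25 and 1.47 CPM in 5mSC and at 3.43, 3.35, 3.31, 3.9 and 2.79 CPM in 24mEE (log2 fold change 1.24 ± 0.203, adjusted p = 0.0104), with 24mSC at a mean of 3.19 CPM and 5mEE at 1.55 CPM. Kif17, a dendritic kinesin that carries NMDA receptor cargo, was at 22.3, 21.9, 17.2, 26.2 and 24.4 CPM against 29.6, 30, 31.9, 34 and 34 (log2 fold change 0.50 ± 0.0827, adjusted p = 0.0105). In Kif17 the enriched groups were the higher ones: 30.4 CPM in 5mEE, 27.7 CPM in 24mSC, and a log2 difference of 24mEE from 24mSC of 0.20, with an interval from 0.08 to 0.33 and an adjusted p of 0.18, these last values without replicate 3. Lin28b, an RNA-binding protein that blocks let-7 maturation, was at 3.28, 3.96, 5.81, 3.17 and 2.79 CPM against 7.09, 8.56, 5.8, 5.54 and 8.74 (log2 fold change 0.96 ± 0.188, adjusted p = 0.0398), overlapping only in replicate 3. Without 5mSC replicate 1 or 5 or 24mEE replicate 1, 2 or 5 its adjusted p was 0.0556 to 0.144. Kmt5a, the histone H4 lysine methyltransferase, was at closely spaced young levels, 42.7, 43.8, 45.5, 43.9 and 44.8 CPM, and fell to 36.3, 36.3, 33.6, 37.5 and 31.2 CPM (log2 fold change -0.33 ± 0.0683, adjusted p = 0.0494). Dok3, an adaptor of immune receptors, and Cys1, a protein of cilia, fell by 1.13 and 0.62 on the log2 scale (adjusted p = 0.0466 and 0.0484). Kmt5a and Cys1 lost their calls without 5mSC replicate 1 or 5 or 24mEE replicate 1, 2, 3 or 5, and Dok3 without 5mSC replicate 1 or 24mEE replicate 1, 2, 4 or 5, at adjusted p of 0.055 to 0.152. Gm43844 (1.77, adjusted p = 0.00633) and the zinc finger gene Zfp687 (0.40, adjusted p = 0.0443) complete the 28 and were named after their values were seen. Without replicate 3 the log2 fold changes of Upk1b, Kif17, Lin28b, Gm43844 and Zfp687 were 1.19, 0.42, 1.13, 1.82 and 0.33 (adjusted p = 0.00623, 0.00315, 0.00163, 0.00163 and 0.0213), and those of Kmt5a, Dok3 and Cys1 were -0.33, -0.85 and -0.64 (adjusted p = 0.0246, 0.0213 and 0.0246). Of the 24 genes that the naming rule followed, 9 stayed called without each of the 10 libraries in turn, namely C4b, Gpx8, Gpr17, Pcdhb9, Serpinh1, Pcdhga6, Upk1b, Kif17 and Pcdhb2. With only the 24mEE and 5mSC libraries in the fit, C4b alone passed.

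The other 10 libraries allow the same age step with housing the other way round, 24mSC against 5mEE, in mice of neither group compared above. The paper does not describe the 5mEE mice, so the start and length of their enrichment are not known. The 10 libraries were, however, part of the fits of 20 and 19 libraries, where they helped to set the filter and the spread. The genes called in those fits were thus not chosen independently of them. Fitted on their own, 1061 of 16093 genes passed there (6.59%), 623 higher in 24mSC (3.87%) and 438 lower (2.72%). Of the 28 genes, 27 had the same sign in that pair (96.4%) and 19 passed in the same direction (67.9%), beside 49.9% and 3.52% of all genes in both fits. The exception in sign was Kif17. Of the 150 genes called without replicate 3 and tested in both, 136 had the same sign (90.7%) and 50 passed in the same direction (33.3%), none in the opposite one, beside 53.5% and 4.21% of all genes. Read from the other side, the 50 are 4.71% of the 1061 genes, of which 677 had the same sign in 24mEE minus 5mSC (63.8%). With the spread estimated from the 9 libraries of 24mEE and 5mSC without replicate 3, 22 genes passed, all 22 with the same sign in the other pair and 16 of them called there (72.7%). Over all genes in both of these fits the shares were 53.2% and 4.22%. Only these 22 genes were chosen without any library of the other pair. The biological coefficient of variation was 17.4% with 20 libraries, 11.3% without replicate 3 and 9.22% in the other pair.

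The 50 genes called in both pairs included C4b, with log2 fold changes of 1.83 without replicate 3 and 1.96 in 24mSC minus 5mEE, and Gpr17, at -0.999 and -1.01. Bmp4 (-1.83 and -1.44), Top2a (-1.61 and -1.32), Lin28b (1.13 and 1.12), Lsp1 (0.70 and 1.06), Pcdhb9 (0.74 and 0.70) and Upk1b (1.19 and 1.05) were among them, and so was Gpx8, at -1.42 and -0.88. Genes called between 24mEE and 5mSC that did not pass in the other pair included Ptgds (-0.25, adjusted p = 0.386), Dnajb1 (-0.10, adjusted p = 0.425), Jmjd6 (-0.03, adjusted p = 0.779), Gpnmb (0.05, adjusted p = 0.878), Serpinh1 (-0.27, adjusted p = 0.122) and Kif17 (-0.13, adjusted p = 0.126). For these the young enriched mice stood nearer to the old mice than the young standard-cage mice did. Whether the fold changes of the 2 pairs differ was not tested.

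**Figure D5:**
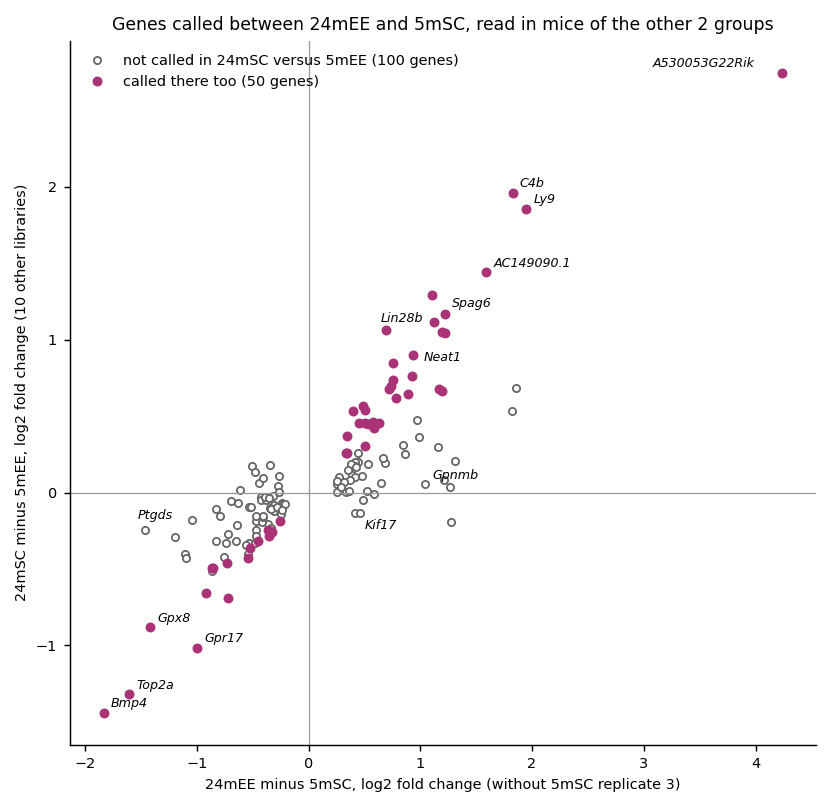
Log2 fold changes of the 150 genes called between 24mEE and 5mSC without 5mSC replicate 3, in that comparison (x axis) and in 24mSC minus 5mEE (y axis), which shares no library with it; filled points are the 50 genes called in both pairs. C4b, Ly9, Bmp4, Top2a, Gpx8 and Gpr17 lie far from 0 on both axes, whereas Kif17, Gpnmb and Ptgds lie near 0 on the y axis.

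What 1 library does to single genes is seen in the 6 that changed most when 5mSC replicate 3 was left out, among genes called in either fit with a mean log2 CPM of at least 1. Spag6, a protein of motile cilia, was at 3.46, 2.38, 10.3, 2.19 and 2.66 CPM in 5mSC and at 6.72, 5.5, 6.89, 5.71 and 6.46 CPM in 24mEE. Its log2 fold change was 0.67 (adjusted p = 0.229) with the library and 1.22 ± 0.123 (adjusted p = 5e-05) without it, the smallest adjusted p of that fit, and 1.17 in 24mSC minus 5mEE. AC149090.1 was at 75.9, 46.1, 400, 50.2 and 64.5 CPM against 141, 181, 203, 248 and 125, so that its log2 fold change went from 0.51 (adjusted p = 0.543) to 1.59 (adjusted p = 0.000151). Pisd-ps1, a pseudogene of phosphatidylserine decarboxylase, was at 27.4 CPM in replicate 3 and at 5.42 to 6.73 CPM in the other 4, against 8.1 to 15.5 CPM in 24mEE (0.89, adjusted p = 0.00348 without it, and 0.24, adjusted p = 0.722 with it). Gm43445 and Naip6 likewise passed without the library (0.97, adjusted p = 0.027, and 0.78, adjusted p = 0.0451) and not with it (adjusted p = 0.433 and 0.579). Fcgrt, the neonatal Fc receptor, went the other way in size, from -0.97 (adjusted p = 0.118) to -0.41 (adjusted p = 0.0475), as replicate 3 stood at 57.4 CPM and the other young libraries at 12.9 to 17.8 CPM. In all 6 genes replicate 3 lay above every 24mEE library.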

How the data were processed

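Hippocampal RNA of 20 mice was sequenced from a single end after a TruSeq RNA v2 preparation, which does not mark the strand. Per the labels, the deposited counts, whole reads per Ensembl gene, were made by the authors on GRCm38; the processing notes name featureCounts 1.4.6-p4, STAR 2.4.1d and bcl2fastq 1.8.2. The paper's own results rest on a different alignment and count, from a larger set of libraries. The deposited RPKM values were not used. Groups came from the age and perturbation labels, and replicate numbers follow the order of deposition and pair nothing. The labels do not name the sequencing run, so no run term was fitted.

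The GRCm38 annotation gave a symbol for 99.1% of 47729 gene identifiers. The analysis used edgeR 4.0.16 in R 4.3.3: filterByExpr (minimum count 10, total 15), TMM scaling, and a quasi-likelihood fit of the 4 groups to all 20 libraries, repeated without the 5mSC library over 10% mitochondrial ribosomal RNA. The groups 24mSC and 5mEE were also fitted on their own 10 libraries. A gene was called at a Benjamini-Hochberg adjusted p under 0.05 over all genes tested. Standard errors are those the F statistic implies, and ± elsewhere is the SD. A list's level is the mean log2 CPM of its members in a library. The script was tested on simulated data. Totals of 11 to 34.1 M counts per library set the counting precision, and 3 counts were taken as the floor.

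The 2 groups, the 48 gene lists and the tests were chosen with earlier results of these data known, so no list is independent evidence. Genes were named by a rule: up to 12 per direction with the smallest p among genes called in both fits with a mean log2 CPM of at least 1, up to 4 called members of each list described or else the 2 with the smallest p, the 10 hub genes of the study, and the 6 genes that changed most without the library, among those called in either fit at the same minimum level. Alternatives were DESeq2 size factors, the DESeq2 1.42.0 Wald test, limma 3.58.1 voom with sample quality weights, other filters, mitochondrial genes left out, only the 2 groups, and each library left out in turn. Shared sequence was measured as the share of a gene's words of read length that occur in other genes. Promoter letters came from RefSeq (GRCm38.p6), and motif positions count bases before the RefSeq start.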

Additional observations from a re-analysis of the deposited data

Results flagged for a closer look

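The gap of a library to the nearest other library of its group was divided by the range of the group. A library was listed when this ratio exceeded Dixon's 95% critical value for 5 libraries. Chance lists about 1 in 20 groups, and 23 of 154 group tests were listed, 13 of them in 5mSC replicate 3.

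In 5mSC replicate 3 the mitochondrial ribosomal RNA was 26.8% of counts, against 1.13 to 1.82% in the other 4. The genes AC149090.1 (400 CPM), Fcgrt (57.4 CPM), Pisd-ps1 (27.4 CPM), Dok3 (21.3 CPM), Spag6 (10.3 CPM) and Gm43445 (4.6 CPM) stood high in this library. The mean log2 levels of proliferation genes (2.33), choroid plexus markers (2.85), collagens (4.07) and interferon-stimulated genes (2.62) were high there, and those of neuron markers (9.14) and of neurotrophins and their receptors (4.93) were low.

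Among the other young libraries, the MHC class II genes stood at 1.7 in 5mSC replicate 4, against 0.771 to 0.977, and the dentate gyrus markers at 6.13 in 5mSC replicate 5, against 5.37 to 5.49.

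In 24mEE replicate 3, C4b was at 175 CPM and Itgb2 at 12.6 CPM, both above the other 4 libraries, Fcgrt at 14.1 CPM and Serpinh1, below the others, at 9.92 CPM. In 24mEE replicate 2 the neocortex markers stood at 4.36, against 3.42 to 3.62, and the lymphocyte and plasma cell genes at 0.101, against 0.743 to 0.977. The antioxidant enzymes were low in 24mEE replicate 5 (4.88, against 4.99 to 5.02), and the total of 24mEE replicate 1 was 27.2 M counts, against 21.7 to 22.6 M.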

How the results depend on the processing

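None of the 24 called genes followed by name reversed under an alternative, but the number of calls moved. Leaving out 1 library at a time gave 11 (without 24mEE replicate 5) to 259 (without 5mSC replicate 2) called genes, 8 to 86 higher and 3 to 173 lower. The DESeq2 Wald test called 350 genes (137 higher, 213 lower), voom with sample quality weights 71 (35 and 36), a floor of 1 CPM in 5 libraries 46 (22 and 24), no filter 20 (11 and 9), DESeq2 size factors 35 (19 and 16) and the fit without mitochondrially encoded genes 42 (21 and 21). With only 24mEE and 5mSC, 1 gene was called (1 higher, 0 lower), or 22 (16 and 6) without 5mSC replicate 3; without both 5mSC replicates 1 and 3 there were 85 (44 and 41). Genes shared with the 28 numbered 28 in the Wald test, 25 under voom, 28 at the floor of 1 CPM and 25 without both replicates. The cause of these shifts was not tested. The 3-count floor and the spread of 5mSC limit what can be called among low genes.

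None of the genes that reversed was called in either fit. The log2 fold change of Zbp1 was 0.44 without 5mSC replicate 3 and 0.29 without replicates 1 and 3 (single libraries left out gave -4.68 to 0.44). That of Ttr was 0.12 and 0.0734 in these fits and 0.14 in the 9 libraries of the 2 groups (-2.26 to 0.12). Gng8 reached 0.0478 under voom and 0.0685 without replicates 1 and 3, and Cttnbp2 1e-04 in the 9 libraries. With single libraries left out, Bcl3 ran from -0.49 to 0.33, Grb10 from -0.0058 to 0.16, Rps6ka1 from -0.0241 to 0.14 and Socs3 from -0.0528 to 0.31. Over all genes and settings followed, 2036 values kept direction and side of the threshold, 99 became called, 116 were no longer called and 16 reversed. Of the list medians 898 stayed within the spread and 13 moved, and of the counts of called list members 786 stayed and 125 moved. No paired analysis was possible because replicate numbers only follow the order of deposition and the labels pair no samples.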

Other observations

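A few genes outside the lists rose without 5mSC replicate 3 and passed in 24mSC versus 5mEE as well, and are named here after their values were seen. Neat1, the long noncoding RNA that scaffolds paraspeckles, was at 130, 161, 312, 130 and 123 CPM in 5mSC and at 216, 312, 296, 237 and 241 CPM in 24mEE. Its log2 fold change was 0.93 without replicate 3 (adjusted p = 0.00636), 0.61 with it (adjusted p = 0.174) and 0.90 in 24mSC minus 5mEE. Slamf9, a receptor of the SLAM family, averaged 0.695 ± 0.242 CPM in 5mSC and 1.39 ± 0.166 CPM in 24mEE (SD, n = 5; log2 fold change 1.22, adjusted p = 0.00736 without replicate 3, and 1.06, adjusted p = 0.0636 with it). Mpeg1, the macrophage perforin, had a log2 fold change of 0.45 (adjusted p = 0.0246 without replicate 3, and 0.0617 with it) and one of 0.46 in 24mSC minus 5mEE. A530053G22Rik was listed at 0.036, 0.122, 0.877, 0.0889 and 0 CPM in 5mSC and at 0.816 to 1.37 CPM in 24mEE, levels at which all young libraries other than replicate 3 were at or under 3 counts.

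In the endocrine lists, Dio2, the deiodinase that activates thyroid hormone, fell by 0.86 on the log2 scale without replicate 3 (adjusted p = 0.0282), and by 0.78 with it (adjusted p = 0.0718). Tsc22d3, a glucocorticoid target, fell by 0.56 without replicate 3 (adjusted p = 0.0432), and had an adjusted p of 0.113 with it. Neither list had another called member. Slc6a20a, a proline transporter, fell by 0.83 without replicate 3 (adjusted p = 0.035) and stood at -0.92 with it (adjusted p = 0.0504).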
